A study of Mus musculus with 20 samples.

Results

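Kidney and small intestine were compared as 2 absorptive epithelia, in 8 of the 20 RNA-seq libraries made from 5 mouse tissues. The 4 kidney libraries and the 4 small intestine libraries were taken by the tissue in their labels, with both genotypes on each side. Each tissue had 2 wild-type (WT) libraries and 2 Nsun6 knockout (KO) libraries, numbered 1 and 2. Nsun6 encodes an RNA methyltransferase that places 5-methylcytosine on RNA, and the KO mice carried a CRISPR/Cas9 deletion of exons 3 and 4 on a C57BL/6J background. All mice were females of 8 weeks, and the deletion is carried in every tissue, so no promoter or Cre limits it. Libraries were made from poly(A) RNA of whole snap-frozen tissue. The sources used here state neither whether tissues came from the same animals nor which segment of the small intestine was taken. The study describes both samples of a group as biological replicates.

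Total counts were 32121286, 28391003, 27240407 and 26414043 in the small intestine libraries, in the order WT 1, WT 2, KO 1 and KO 2, and 25988075, 25327492, 25220170 and 24772312 in the kidney libraries. All lists of 4 values below keep this order. Levels are given as RPKM, the counts scaled to library size and composition (CPM) and divided by the kilobases of merged exon, so that genes can be compared with each other. In whole tissue, fewer cells of a type and less RNA per cell cannot be told apart. Nsun6 itself had 338, 156, 267 and 127 counts in the small intestine and 189, 141, 111 and 93 counts in the kidney. The genotypes overlapped in the intestine, where KO was below WT within each number, and both KO libraries were below both WT libraries in the kidney. These are counts over the whole gene, which do not resolve the deleted exons and so do not check the genotypes.

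Enterocytes of the small intestine and tubule cells of the kidney both carry a microvillous brush border, recover sugars, amino acids, phosphate and ions across their apical membrane, and are sealed by tight junctions. They do so with members of the same gene families, and the sodium-glucose carriers SGLT1 of the gut and SGLT2 of the kidney tubule are the textbook example of such a choice between paralogs. HNF4 factors act in both tissues, whereas CDX factors specify the intestine and PAX2 and PAX8 the kidney.

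The marker genes followed the tissue labels. Many of them, such as Slc12a1, Slc34a1, Cdh16, Sis, Alpi and Cdh17, are also described below, so those results and this label check share the same values. All 8 markers of kidney epithelium were higher in the kidney libraries and all 8 markers of intestinal epithelium were higher in the small intestine libraries, by edgeR with an adjusted p under 0.1 and more than a 2-fold difference, the thresholds used throughout. Uromodulin (Umod), the thick ascending limb protein, led the kidney list with 339.8, 722, 877 and 697 RPKM, against at most 0.0612 in an intestine library. The enterocyte fatty acid binding protein Fabp2 led the intestine list with 5969, 12080.1, 8654 and 11614 RPKM, against at most 0.0933 in a kidney library. Of the defining genes, Alpi and Cdx2 had no counts in any kidney library and Aqp2 had none in any intestine library. Other cell types differed as well. All 7 goblet cell markers and all 8 Paneth cell markers were higher in the intestine, as were 7 of 8 smooth muscle, 7 of 8 B and plasma cell and 8 of 8 T cell markers, whereas 8 of 8 endothelial markers were higher in the kidney. Among all genes tested, 23.1% were higher in the intestine and 23.5% in the kidney. The intestine libraries differed among themselves in these cells, as summed marker levels were 589, 1102, 74.7 and 1683 RPKM for B and plasma cells, 437, 916, 46.5 and 538 for T cells and 112, 184, 977 and 543 for smooth muscle, with KO 1 lowest in both immune lists and both KO libraries highest in smooth muscle. The share of these cells in the results below was not tested.

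Libraries within a tissue were not equally alike. Across genes, log2 levels of the intestine libraries correlated at 0.957 between WT 1 and KO 1 and at 0.981 between WT 2 and KO 2, but at 0.921 to 0.926 between libraries of different numbers, so the replicate number separated the intestine libraries more than genotype did. The numbers also went with markers of gut position. Summed levels of 14 markers of proximal intestine, led by the calcium binding protein S100g, were 378, 50723, 1041 and 36609.6 RPKM in the intestine libraries, and 13 of the 14 were higher in the libraries numbered 2. Those of 10 markers of distal intestine, led by the ileal bile acid binding protein Fabp6, were 18129.7, 709, 16779 and 761 RPKM, with 8 of 10 higher in the libraries numbered 1. These markers overlap with the transporters described below and were chosen with this pattern known. Paneth cell markers, led by Defa24, summed to 11426, 712, 6531 and 1385 RPKM, and 7 of 8 were higher in the libraries numbered 1. Of 8 markers each, 4 endothelial markers and 4 enteroendocrine and tuft cell markers were higher in number 2, and 1 enteroendocrine and tuft cell marker and 5 adipocyte markers were higher in number 1. Among all genes tested, 4.07% were higher in number 2 and 2.77% in number 1. The summed adipocyte levels went the other way, with 74.7, 96.6, 54.1 and 93.4 RPKM. The part of all these cell types in the differences between numbers was not tested.

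In the kidney, WT 2 stood apart. It correlated at 0.928 to 0.965 with the other kidney libraries, which correlated at 0.979 to 0.990 with each other. Its deviation from them followed base composition, as the plot of deviation by GC content shows. From the genes of lowest to those of highest transcript GC, the median log2 deviation of WT 2 went from 0.505 to -1.07, and the rank correlation with GC over 15707 genes was -0.49, against 0.26, 0.56 and 0.18 for WT 1, KO 1 and KO 2. Of 403 listed genes with at least 1 RPKM in the kidney, WT 2 lay more than 2-fold below all other kidney libraries in 68, and the other 3 libraries did so in 7, 0 and 0. Among the genes whose values are given below, these are Slc5a2, Slc34a1, Slc12a3, Scnn1b, Aqp2, Slc28a1, Slc36a1, Slc23a2, Tjp3, Pax2, Emx1 and Esrra. The difference between kidney and intestine itself had a rank correlation with GC of -0.077, and of -0.006 without WT 2.

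**Figure D1:**
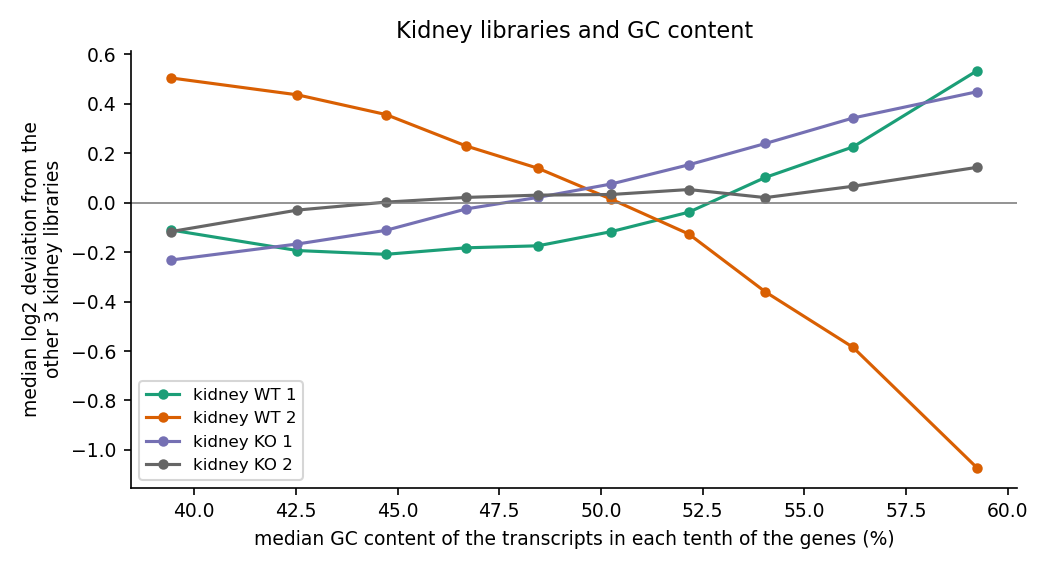
Median log2 deviation of each kidney library from the mean of the other 3 (vertical axis) for 10 groups of genes of rising GC content (horizontal axis, percent, median of each group), over 15707 genes with at least 1 CPM. The WT 2 line falls from 0.505 to -1.07 while the other 3 lines end above where they start.

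Across all genes, 19882 passed the filter on low counts and were tested. In the edgeR quasi-likelihood test with Benjamini-Hochberg adjustment, 4671 genes were higher in the kidney, which is 23.5% of those tested, and 4595 were higher in the small intestine, which is 23.1%, so that 46.6% of all genes were called. The counts of families and lists given below stand beside these shares of all genes. The lists examined here hold 610 transporter, brush border, junction and transcription factor genes in 98 families. Of them 608 were found in the table and 555 were tested, and 188 were called higher in the kidney and 203 higher in the intestine, together 70.5% of those tested against the 46.6% of all genes. The lists were chosen with earlier results of these data known, so the gap between these shares is not read as a result.

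The balance of calls differed between the classes, which was not tested. Of 261 transporters, 100 were higher in the kidney and 76 higher in the intestine, with a median log2 fold change of 0.29. Of 91 brush border genes, 18 were higher in the kidney and 48 in the intestine, with a median of -1.55. The 78 junction genes were divided evenly, with 29 on each side and a median of -0.44, and of the 125 transcription factors 41 were higher in the kidney and 50 in the intestine, with a median of -0.71. The transcription factor list also holds Olfm4, a secreted glycoprotein that marks intestinal stem cells and is not a factor, which was called higher in the intestine and led its family in the kidney. The median of all genes tested was 0.02, and with total counts in place of composition-scaled libraries it was 0.25. With total counts the 188 and 203 genes became 195 and 182. Without kidney WT 2 they were 185 and 191 of 563 tested. With at least 10 counts in every library, the transporters were 48 higher in the kidney and 50 in the intestine, and the junction genes 11 and 25.

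**Figure D2:**
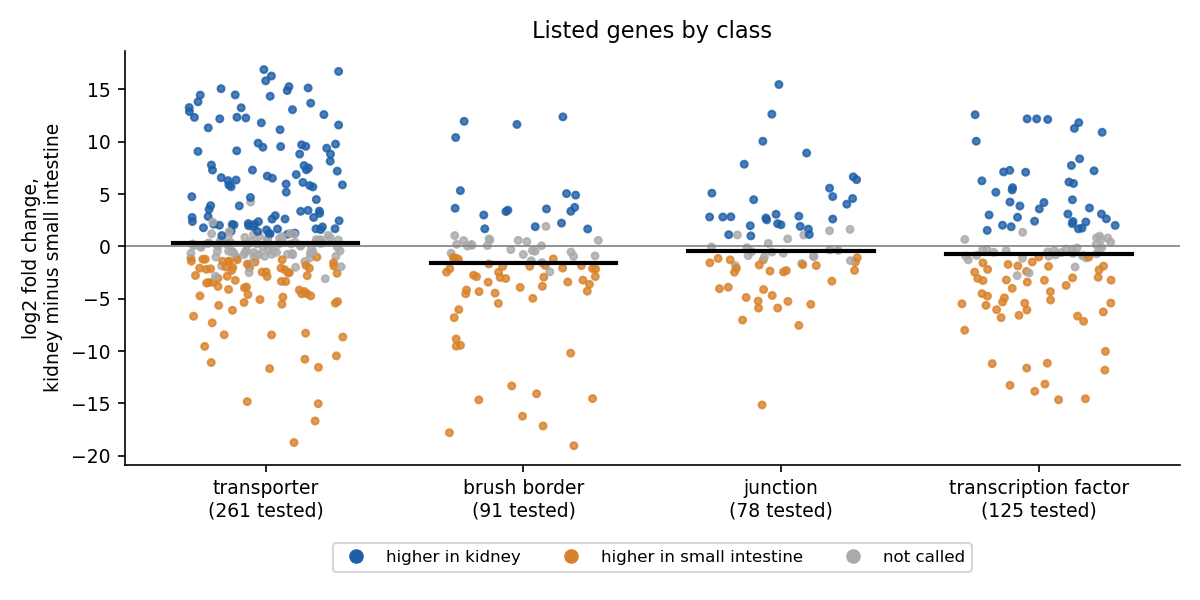
Log2 fold change of kidney minus small intestine (vertical axis) for the tested genes of each class, one point per gene, coloured by the call at adjusted p under 0.1 and fold over 2, with the class median as a black bar. Brush border genes lie mostly below 0, with 48 of 91 called higher in the intestine, while transporters reach above 15 and below -15 on the log2 scale.

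In most families a different member led in each tissue by the mean over its libraries. By mean RPKM, the leading member differed in 67 of the 98 families, and in 62 of the 89 whose leaders had at least 1 RPKM in both tissues. The leader varied between libraries of a tissue in 56 families, 24 of them transporter families, and in 52 families no library of the kidney shared its leader with a library of the intestine. By the mean, leaders differed in 30 of 36 transporter families, 14 of 21 brush border families, 7 of 12 junction families and 16 of 29 transcription factor families. For 24 pairs of paralogs, with the member known from the kidney written first, the ratio of both members within each library was compared, which does not depend on how libraries are scaled. In 23 of 24 pairs every kidney library had a higher ratio than every intestine library. With 4 libraries against 4, the two-sided exact permutation test then gives p = 0.0286, the smallest it can give, for each of the 23, and the pairs were chosen with earlier results of these data known. The exception was Slc36a2 and Slc36a1, proton-coupled amino acid carriers, with p = 0.4 in the same exact test. Among all genes tested, the libraries of both tissues did not overlap with the kidney higher in 24.3% and with the intestine higher in 22.7%. Both members were called in opposite directions in 18 pairs, and in 13 the first member was the higher in all kidney libraries and the second in all intestine libraries. Among the 18, the intestine calls of Aqp8, Slc12a2, Slc34a2, Slc6a14 and Trpv6 were each lost when certain single libraries were left out. Differences in log2 ratio between the tissue means ran from 2.19 to 30.06, with a median of 12.35.

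**Figure D3:**
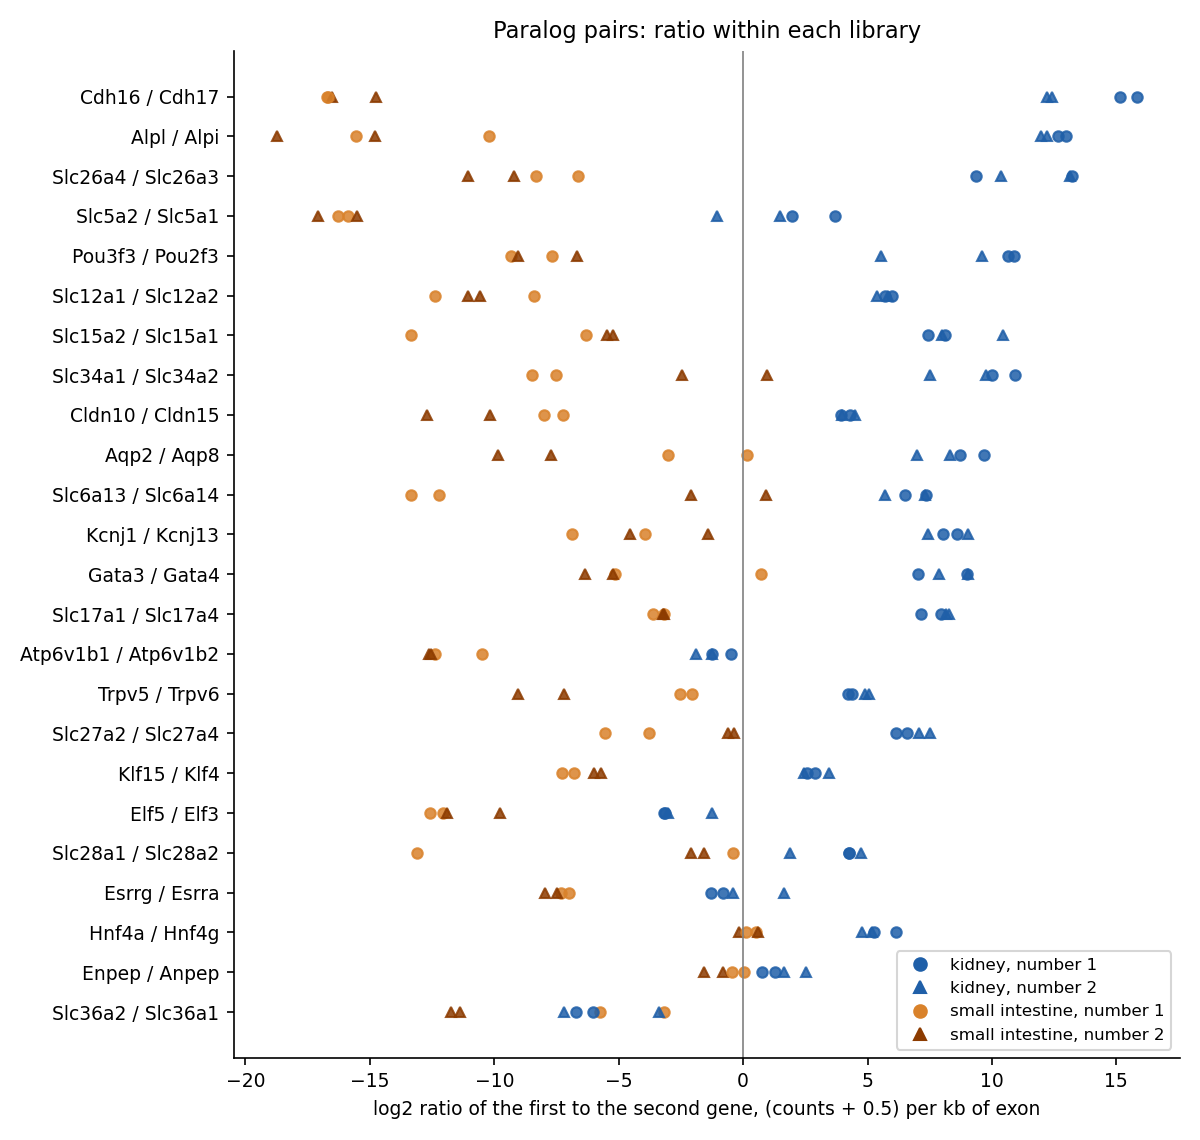
Log2 ratio of the first to the second paralog in each library (horizontal axis, counts + 0.5 per kilobase of exon) for 24 pairs (vertical axis), in blue for kidney and orange or brown for small intestine, with circles for libraries numbered 1 and triangles for those numbered 2. In 23 pairs the 4 kidney points lie to the right of all intestine points, and Slc36a2 / Slc36a1 is the pair where they overlap.

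The promoters of some of these genes are shown first, because letters that match motifs of factors known from these tissues stand in them. Binding was not measured. Of the 608 listed genes found in the table, 445 had a promoter in the RefSeq table of GRCm38.p6, and the 100 bases before the start were searched on both strands for motifs, of which 3 are described, and no sites of these share bases in the promoters printed. Among the promoters of all 27025 genes, the CDX site TTTATNG was in 4.68%, the HNF4 core site AAGTCCA in 1.37% and the GATA site AGATAA in 4.19%. Since not all motifs searched are described, no comparison of motifs between the kidney and intestine genes is drawn. A match is a description of the letters in this window and not a known site of the factor. On the opposite strand the CDX letters read CNATAAA, which a TATA box can also match, and the letters do not tell these apart.

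As examples, chosen for their letters, the promoters of 5 genes higher in the intestine, or in one pair of its libraries, carry CDX, GATA or HNF4 letters in capitals. They are those of intestinal alkaline phosphatase, Alpi (chr1:87101607-87101706, minus strand, with a CDX site at 33 and an HNF4 core site at 17 bases before the start), sucrase-isomaltase, Sis (chr3:72967864-72967963, minus strand, CDX at 52), Fabp2 (chr3:122894972-122895071, plus strand, CDX at 65), the ileal bile acid carrier Slc10a2 (chr8:5105288-5105387, minus strand, CDX at 62 and 52) and lactase, Lct (chr1:128328319-128328418, minus strand, GATA at 90).
Alpi: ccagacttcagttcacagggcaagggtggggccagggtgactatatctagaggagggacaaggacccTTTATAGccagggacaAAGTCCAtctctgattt
Sis: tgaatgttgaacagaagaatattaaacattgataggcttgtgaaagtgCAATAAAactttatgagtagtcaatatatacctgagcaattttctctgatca
Fabp2: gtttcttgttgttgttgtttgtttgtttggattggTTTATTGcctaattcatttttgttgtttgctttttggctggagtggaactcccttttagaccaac
Slc10a2: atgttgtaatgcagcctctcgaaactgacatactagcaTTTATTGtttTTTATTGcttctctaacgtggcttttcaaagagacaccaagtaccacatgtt
Lct: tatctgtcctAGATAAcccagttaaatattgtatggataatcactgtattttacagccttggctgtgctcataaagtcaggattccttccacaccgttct
The same letters stand in promoters of genes higher in the kidney, for example in those of pendrin, Slc26a4 (chr12:31559985-31560084, minus strand, CDX at 67 and 32), and of the peptide carrier Slc15a2 (chr16:36784963-36785062, minus strand, GATA at 95).
Slc26a4: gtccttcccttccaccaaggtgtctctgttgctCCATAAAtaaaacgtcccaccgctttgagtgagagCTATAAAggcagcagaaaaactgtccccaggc
Slc15a2: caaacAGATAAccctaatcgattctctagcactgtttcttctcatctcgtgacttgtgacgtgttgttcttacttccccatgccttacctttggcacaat

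Sodium-glucose carriers showed the textbook choice. Slc5a2, which encodes SGLT2, on chromosome 7 from 128265657 to 128272430, had 187, 17, 109 and 88.7 RPKM in the kidney libraries and 1 count in all in the small intestine, in WT 2. The ratio of the summed levels was 33601 (95% exact interval 6030.3 to 1327200.0), with adjusted p = 4.93e-05. WT 2 was the lowest kidney library, and 21% of the exon bases of Slc5a2 overlap another gene. Slc5a1, which encodes SGLT1, on chromosome 5 from 33104219 to 33162870, had 317, 1030.3, 498 and 1055 RPKM in the intestine and 14.5, 35.6, 27.9 and 31.8 in the kidney. It was higher in the intestine by 4.72 on the log2 scale (SE 0.56, adjusted p = 0.000305), and all intestine libraries were above all kidney libraries. Slc5a1 was thus also present in the kidney, and in kidney WT 2 it was above Slc5a2. Of the 9 members of this family tested, 3 were higher in the kidney and 3 in the intestine. This is 33.3% on each side, against 23.5% and 23.1% of all genes tested. Slc2a2, the basolateral glucose carrier GLUT2, is described with the intestine replicates below.

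Phosphate carriers were divided by tissue and by intestine library. The sodium-phosphate carrier Slc34a1 had 936, 119, 610.2 and 335 RPKM in the kidney, with WT 2 lowest, and 0.231, 0.0362, 0.326 and 0.0465 in the intestine (log2 fold change 11.59, SE 1.22, adjusted p = 0.000162). Its intestinal paralog Slc34a2 had 84.7, 0.0169, 61.0 and 0.277 RPKM in the intestine and 0.479, 0.648, 0.592 and 0.381 in the kidney. Only the intestine libraries numbered 1 were thus above the kidney, while those numbered 2 were below it. The call for the intestine (log2 fold change -6.10, SE 2.0, adjusted p = 0.0351) rested on number 1: against number 2 alone the log2 fold change was 2.16 with adjusted p = 0.116, and the call was lost without any one of kidney WT 2, intestine WT 1 or intestine KO 1 (adjusted p up to 0.316). The organic anion and phosphate carrier Slc17a1 had 196, 358, 270.1 and 256 RPKM in the kidney and 2.42, 0.660, 1.57 and 2.13 in the intestine, and Slc17a4 had 21.8, 6.11, 19.6 and 19.7 RPKM in the intestine and 1.38, 1.26, 1.08 and 0.830 in the kidney, both called. Slc13a3, a sodium-dicarboxylate carrier, had 79.0, 82.5, 107 and 56.6 RPKM in the kidney and 4 counts in all in the intestine (adjusted p = 1.37e-05).

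Peptide carriers of the apical membrane changed places between the tissues. Slc15a2, the high-affinity carrier, had 17.4, 44.2, 30.1 and 36.9 RPKM in the kidney and 0.499, 1.30, 0.00985 and 1.73 in the intestine (log2 fold change 5.18, SE 1.11, adjusted p = 0.00578). Slc15a1, the low-affinity carrier of the gut, had 40.1, 57.5, 126 and 64.7 RPKM in the intestine and 0.0983, 0.0273, 0.105 and 0.143 in the kidney (log2 fold change -9.55, SE 0.52, adjusted p = 1.18e-05). Neither gene overlapped between tissues.

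Among amino acid carriers, single members of a family were called on opposite sides. Slc6a18, a neutral amino acid carrier, had 217, 135, 206 and 200.4 RPKM in the kidney and 2.75, 0.862, 3.30 and 0.236 in the intestine (log2 fold change 6.72, SE 0.87, adjusted p = 0.000473). Its relative Slc6a19, the main apical carrier of neutral amino acids in both tissues, had 134, 224, 351 and 159 RPKM in the intestine and 69.1, 46.2, 41.1 and 41.3 in the kidney (log2 fold change -2.13, SE 0.40, adjusted p = 0.00315). The exchanger subunit Slc7a9 was also higher in the intestine, with a log2 fold change of -1.56 (SE 0.38, adjusted p = 0.0106), whereas its partner Slc3a1 was not called (101, 242, 187 and 220.1 RPKM in the kidney, 123, 51.8, 163 and 55.0 in the intestine, adjusted p = 0.121). Slc7a12, known from the kidney, had 153, 249, 168 and 273 RPKM there and no counts in the intestine, which is at least 12719.6-fold higher against a floor of 3 counts over the 4 libraries (adjusted p = 3.65e-05). The GABA carrier Slc6a13 had 25.5, 34.9, 41.0 and 41.2 RPKM in the kidney and at most 0.146 in the intestine. The broad amino acid carrier Slc6a14 had 179, 0.0739, 65.3 and 0.0253 RPKM in the intestine and 0.280, 0.661, 0.246 and 0.257 in the kidney, so that its intestine libraries lay on both sides of the kidney. The proton-coupled carriers Slc36a1 and Slc36a2 were called on neither side, with 30.7, 2.89, 16.6 and 10.7 RPKM of Slc36a1 in the kidney and 5.58, 22, 6.34 and 17.7 in the intestine, and at most 0.607 of Slc36a2 in any library. Of the 9 Slc6 genes tested, 3 were higher in the kidney and 4 in the intestine, and of the 12 exchanger subunits of the Slc3 and Slc7 families 2 and 3. The counts of the exchanger subunits are near the 23.5% and 23.1% of all genes tested and are not read as a result about that family.

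Organic ion carriers were mostly higher in the kidney, in 13 of 14 Slc22 genes tested and in 4 of 8 Slco genes, with 2 Slco genes higher in the intestine. The leading genes by size of change were Slc22a8, the carrier OAT3, Slc22a19 and Slc22a6, the carrier OAT1. Slc22a8 had 158, 134, 189 and 93.3 RPKM in the kidney and no counts in the intestine, which is at least 20121-fold higher (adjusted p = 3.95e-05). Slc22a6 had 49.5, 68.7, 92.9 and 58.2 RPKM and again no intestine counts, at least 9385-fold higher (adjusted p = 2.9e-05). The urate carrier Slc22a12, known as URAT1, had 152, 67.8, 215 and 131 RPKM in the kidney and 6 counts in all in the intestine. Slco1a6, an organic anion carrier, had 108, 191, 127 and 140.4 RPKM in the kidney and 1 count in the intestine. Nucleoside carriers differed too: Slc28a2 had 46.2, 103, 34.4 and 142 RPKM in the intestine and at most 0.300 in the kidney, while Slc28a1, the first member of that pair, was not called, with 5.74, 1.12, 4.96 and 2.94 RPKM in the kidney and 0, 24, 25.7 and 47.2 in the intestine. Its intestine value is listed at 0 in WT 1 alone. On the other side stood the sterol exporter Abcg5, with 119, 155, 118 and 139 RPKM in the intestine and at most 0.149 in the kidney (log2 fold change -10.78, SE 0.82, adjusted p = 3.39e-05).

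Chloride carriers and channels differed within their families. Slc12a1, the furosemide-sensitive carrier of the thick ascending limb, had 217, 235, 244 and 254 RPKM in the kidney and 4 counts in all in the intestine (adjusted p = 1.65e-05). Slc12a2, the secretory form, had 14.3, 7.79, 9.62 and 5.73 RPKM in the intestine and 4.17, 5.67, 3.87 and 4.45 in the kidney (log2 fold change -1.02, SE 0.28, adjusted p = 0.0165). Its change was close to the fold threshold, and the call was lost without kidney WT 1, intestine WT 1 or intestine KO 1, with a log2 fold change of -0.85 where it was smallest. The anion exchanger pendrin, Slc26a4, had 29.2, 23.1, 27.5 and 26.1 RPKM in the kidney and at most 0.326 in the intestine, while Slc26a3, the exchanger of the gut, had 33.7, 72.8, 32.7 and 37.1 RPKM in the intestine and at most 0.0424 in the kidney. Both were called, with log2 fold changes of 7.77 (SE 0.67) and -11.67 (SE 0.83). By mean RPKM the intestine was led in these families by other members, Slc12a7 with 15.2 RPKM and Slc26a6 with 88.9 RPKM. Of the 8 genes of the Clca family and Cftr, 6 were higher in the intestine and none in the kidney. Clca1, a secreted protein of goblet cells, and Clca4b were among the leading intestinal genes. Clca1 had 1166, 878, 1043 and 729 RPKM in the intestine and at most 0.0485 in the kidney, and Clca4b had 1049, 337, 963 and 341 RPKM and no counts in the kidney, at least 78872-fold higher in the intestine (adjusted p = 0.000164). Cftr, the chloride channel, was higher in the intestine by 4.12 on the log2 scale (SE 0.43, adjusted p = 0.000164).

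Families of sodium, potassium, proton and water transport are given by their counts among the genes tested. Higher in the kidney were 4 of 8 Kcnj potassium channels, with none higher in the intestine, 7 of 13 proton pump subunits, with 3 higher in the intestine, 5 of 10 aquaporins, with 3 in the intestine, 4 of 13 sodium pump genes, with 2 in the intestine, and 1 of 6 Slc9 sodium-proton exchangers, with 2 in the intestine. Of all genes tested 23.5% were higher in the kidney and 23.1% in the intestine, and the counts of the sodium pump and Slc9 genes are near these shares. All 3 subunits of the epithelial sodium channel were higher in the kidney, and Scnn1b, its beta subunit, had 19.5, 5.90, 19.9 and 15.1 RPKM there and no counts in the intestine, at least 1473-fold higher (adjusted p = 0.000218). The thiazide-sensitive carrier Slc12a3 had 340.3, 21.8, 163 and 152 RPKM in the kidney, with WT 2 again lowest, and at most 0.0167 in the intestine. The potassium channel Kcnj1 had 187, 248, 205 and 174 RPKM in the kidney and 2 counts in the intestine, whereas Kcnj13 was not called, with at most 0.984 RPKM in a kidney library and 0.628 in an intestine library and 49% of its exon bases shared with another gene. The proton pump subunit Atp6v1b1 had 33.8, 19, 28.9 and 25.1 RPKM in the kidney and 2 counts in the intestine, whereas its widely expressed paralog Atp6v1b2 was present in both, with 47.1, 70.7, 68.0 and 58.9 RPKM in the kidney and 25.5, 30.2, 22.2 and 29.3 in the intestine (log2 fold change 1.19, SE 0.24, adjusted p = 0.00455). The water channel Aqp2 had 84.8, 16.2, 124 and 76.9 RPKM in the kidney, lowest in WT 2, and none in the intestine, at least 3963-fold higher (adjusted p = 0.000365). None of the 3 aquaporins called for the intestine was free of overlap between the tissues. The call of Aqp8, which is among them, was lost without any of 6 single libraries (adjusted p up to 0.525).

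Of the smaller subunits of the sodium pump, one was present in both tissues and one was abundant in the kidney and at most at 0.271 RPKM in the intestine. The beta subunit Atp1b1 was not called, with 450.1, 559.6, 521 and 482 RPKM in the kidney and 381, 552, 556 and 435 in the intestine (log2 fold change 0.07, SE 0.29, adjusted p = 0.87), which does not show that its levels were equal. The regulatory subunit Fxyd2 had 484, 1271, 880.2 and 854 RPKM in the kidney and 0, 0.190, 0.0181 and 0.271 in the intestine (log2 fold change 12.88, SE 1.43, adjusted p = 0.000218).

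Carriers of vitamins, fatty acids and monocarboxylates had different leaders as well. The ascorbate carrier Slc23a1 led in the kidney with 78.2, 79.7, 81.8 and 76.7 RPKM against 0.811, 1.08, 0.425 and 1.03 in the intestine (log2 fold change 6.57, SE 0.37, adjusted p = 1.22e-05). Its paralog Slc23a2 led in the intestine, where it had 5.17, 59.8, 6.49 and 39.3 RPKM against 3.15, 1.34, 2.70 and 2.90 in the kidney, and was higher in the libraries numbered 2. Slc27a2, a fatty acid transport protein and acyl-CoA synthetase, had 493, 902, 607 and 682 RPKM in the kidney and 5.27, 106, 2.75 and 147 in the intestine, while Slc27a4, the intestinal member, had 73.3, 161, 131 and 187 RPKM in the intestine and 5.12, 4.99, 8.68 and 5.04 in the kidney. Without kidney WT 2 the adjusted p of Slc27a2 was 0.11. Their log2 fold changes were 3.37 (SE 1.18, adjusted p = 0.0446) and -4.53 (SE 0.37, adjusted p = 4.73e-05). Among monocarboxylate carriers, Slc16a4 had 84.5, 182, 110.3 and 109 RPKM in the kidney and at most 2.32 in the intestine, and Slc16a1 had 27.9, 31.9, 45.8 and 49.0 RPKM in the intestine and at most 8.66 in the kidney.

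Among brush border genes, 48 of 91 were higher in the intestine, enzymes as well as parts of the cytoskeleton. All 4 disaccharidases tested were higher there, as were 3 of 4 alkaline phosphatases, 7 of 11 unconventional myosins and 4 of 5 intermicrovillar adhesion genes tested. Lactase and the alkaline phosphatase Akp3 were near 0 in the intestine libraries numbered 1, so that these calls rested on number 2, and that of Akp3 was lost without kidney WT 2 (adjusted p = 0.118). Alpi on chromosome 1 from 87098002 to 87101606 had 85.6, 2284, 217 and 1678 RPKM in the intestine, more in the libraries numbered 2, and no counts in the kidney, at least 81658-fold higher (adjusted p = 0.00185). Its tissue-nonspecific paralog Alpl, on chromosome 4 from 137741733 to 137796384, had 40.9, 38.1, 63.7 and 37.1 RPKM in the kidney and 0.0689, 0, 0 and 0.0539 in the intestine (log2 fold change 10.40, SE 0.89, adjusted p = 5.44e-05). Sucrase-isomaltase, Sis, had 311, 720.2, 647 and 737 RPKM in the intestine and 3 counts in all in the kidney (adjusted p = 1.59e-05). The aminopeptidases Anpep and Enpep were both called higher in the intestine, although Enpep was the first member of its pair: Anpep had 543, 314, 889.7 and 352 RPKM there and 9.13, 9.27, 19.4 and 11 in the kidney, and Enpep 556, 179.9, 657 and 119.5 and 22.3, 53.6, 32.9 and 34.7. The ratio of Enpep to Anpep was nevertheless higher in all kidney libraries.

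Collectrin and several peptidases of the brush border also differed. Cltrn, which encodes collectrin, a partner of amino acid carriers, had 1536, 2572, 1639 and 1469 RPKM in the kidney and 0.320, 0.164, 1.15 and 0.366 in the intestine (log2 fold change 11.95, SE 0.83, adjusted p = 2.42e-05). Carboxypeptidases changed places. Folh1 had 54.6, 129, 67.8 and 80.7 RPKM in the kidney and 5 counts in all in the intestine (adjusted p = 1.4e-05), and Naaladl1 had 707, 26.1, 1036 and 45.3 RPKM in the intestine, mostly in the libraries numbered 1, and 0.566, 0.107, 0.677 and 0.148 in the kidney (log2 fold change -10.20, SE 1.64, adjusted p = 0.00143). Of the meprin subunits, Mep1b was higher in the intestine (931, 520.4, 761 and 408 RPKM against 34.2, 109, 72.5 and 95.1, adjusted p = 0.00123), while Mep1a was not called and its intestine libraries differed, with 278, 13.6, 376 and 16.1 RPKM against 136, 486, 352 and 416 in the kidney.

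The endocytic receptor megalin, Lrp2, had 85.6, 162, 141 and 162 RPKM in the kidney and at most 0.0494 in the intestine (log2 fold change 11.65, SE 0.49, adjusted p = 7.21e-06), and its adaptor Dab2 had 41.0, 51.3, 50.2 and 41.0 RPKM against 0.711, 0.933, 1.56 and 1.61. Its partner cubilin, Cubn, which also takes up vitamin B12 complexes in the ileum, had 13.4, 40.2, 36.2 and 37.8 RPKM in the kidney and 20.7, 6.41, 49.2 and 16.3 in the intestine and was not called (adjusted p = 0.407). The libraries of both tissues overlapped.

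In the microvillus core, both tissues used villin and ezrin, at different levels. Villin, Vil1, had 412, 493, 514 and 502 RPKM in the intestine and 18.1, 27.5, 28.1 and 22.4 in the kidney (log2 fold change -4.32, SE 0.31, adjusted p = 2.73e-05). Ezrin, Ezr, had 231, 238, 296 and 178 RPKM in the intestine and 45.7, 52.4, 66.4 and 52.0 in the kidney, where its paralog radixin, Rdx, reached a similar level with 47.7, 60.6, 46.0 and 51.8 RPKM against 3.36, 2.96, 4.2 and 5.31 in the intestine. The bundling protein plastin 1, Pls1, had 632, 549, 563 and 565 RPKM in the intestine and 18.8, 33.0, 23.9 and 24.3 in the kidney, and plastin 3, Pls3, had 24, 52.4, 30.1 and 30.5 RPKM in the kidney and 3.0, 1.99, 5.23 and 3.61 in the intestine. All of these were called. The motor Myo1a, which links the core to the membrane, had 332, 388, 507 and 402 RPKM in the intestine and 6 counts in all in the kidney, whereas Myo6 was the leading myosin of the kidney list without differing by the test (25.3, 35.1, 30.1 and 32.3 RPKM in the kidney, 31.7, 23, 29.7 and 22.3 in the intestine, adjusted p = 0.529). Of the intermicrovillar adhesion proteins, Cdhr2 was higher in the intestine by 6.04 (SE 0.35) and Cdhr5 by 3.62 (SE 0.33) on the log2 scale. Of the 4 PDZ scaffolds of apical carriers, 2 were higher in the kidney and 1 in the intestine. The leading ones were called on opposite sides: Slc9a3r1 had 238, 411, 308 and 359 RPKM in the intestine and 36.5, 37.2, 61.3 and 44.3 in the kidney, and Pdzk1, with 42% of its exon bases shared with other genes, had 80.2, 140.1, 128 and 179 RPKM in the kidney and 22.5, 23.1, 36.6 and 31.1 in the intestine.

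Junction genes were called in equal numbers on either side, and cadherins were called on both sides. Of the 10 cadherins, 8 were higher in the kidney and 2 in the intestine, of 16 claudins tested 9 and 5, and all 4 desmosomal cadherins tested and all 3 members of the occludin family were higher in the intestine. Ksp-cadherin, Cdh16, on chromosome 8 from 104601911 to 104624396, had 121, 137, 237 and 175 RPKM in the kidney and 1 count in the intestine, a ratio of 67276 (95% exact interval 12074 to 2657300.0) (adjusted p = 7.21e-06). LI-cadherin, Cdh17, on chromosome 4 from 11758147 to 11817895, had 435, 526, 508 and 468 RPKM in the intestine and 6 counts in all in the kidney (adjusted p = 1.65e-05). This pair had the largest difference of the 24, at 30.06 on the log2 scale with 0.5 added to each count and 27.04 with 2 added, so that its size depends on the added count.

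Claudins, which set the ion selectivity of tight junctions, were compared as shares of their summed RPKM, as the plot of claudin shares shows. In the kidney, Cldn2, a cation and water pore, held 37.8% ± 2.14 of the claudin RPKM, Cldn10 held 28.0% ± 2.82, Cldn8, a barrier of the distal nephron, 14% ± 2.09 and Cldn16, needed for magnesium reabsorption in the thick ascending limb, 5.78% ± 0.608 (means ± SD, n = 4). In the intestine, Cldn7 held 43.5% ± 11.4, Cldn15, the sodium pore of the gut, 26.9% ± 18.4, Cldn3 13.8% ± 3.07 and Cldn2 7.85% ± 5.09. The intestine shares of Cldn15 split by replicate number, at 10.5%, 42.8%, 11.3% and 42.9% in the order of the libraries.

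**Figure D4:**
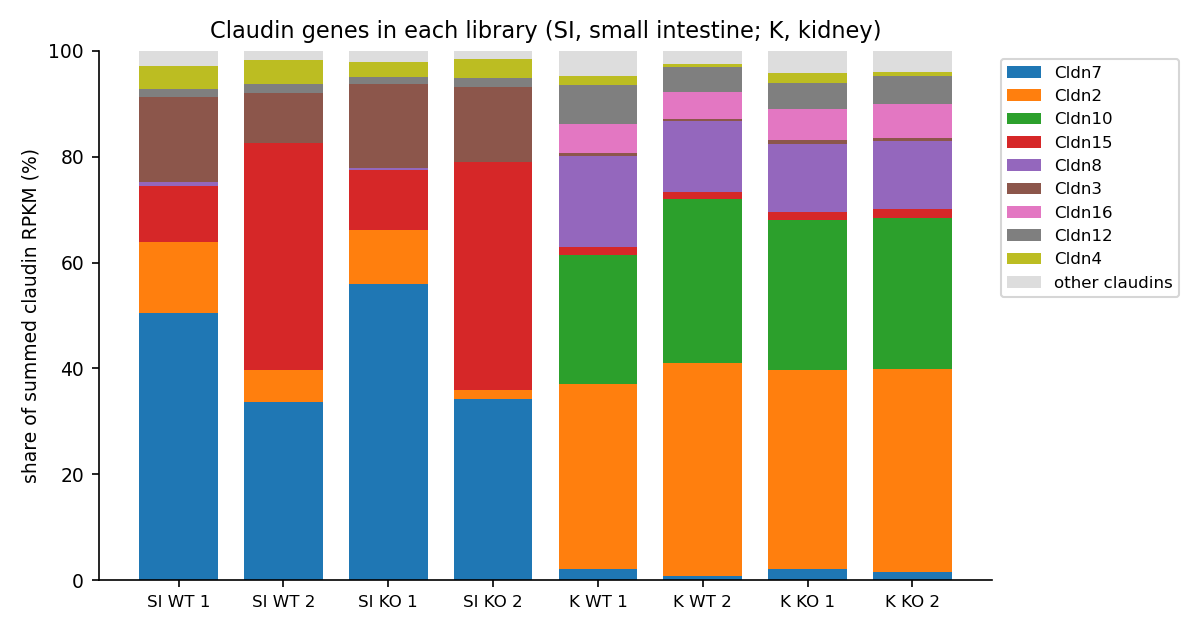
Share of the summed claudin RPKM (vertical axis, percent) held by 9 claudins and by all others in each library (horizontal axis, SI for small intestine and K for kidney). Cldn2, Cldn10 and Cldn8 fill most of the kidney bars and Cldn7, Cldn15 and Cldn3 most of the intestine bars, with Cldn15 larger in the intestine libraries numbered 2.

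By level, Cldn10 had 72.1, 188, 119 and 121 RPKM in the kidney and 0.274, 0.0327, 0.560 and 0.218 in the intestine (log2 fold change 8.92, SE 0.79, adjusted p = 6.85e-05). Cldn15 had 72.4, 271, 85 and 260.3 RPKM in the intestine and 4.66, 8.30, 6.03 and 7.72 in the kidney (log2 fold change -4.69, SE 0.56, adjusted p = 0.000318). Cldn16 had 16.6, 30.8, 24.7 and 27.8 RPKM in the kidney and no counts in the intestine, at least 1012-fold higher (adjusted p = 8.04e-05). Cldn7 was higher in the intestine, with 348, 213, 419 and 208 RPKM against 6.13, 4.34, 8.70 and 6.85. For other junction families, the desmosomal cadherin Dsc2 and the adhesion protein Epcam were higher in the intestine by 5.89 (SE 0.29) and 4.04 (SE 0.38) on the log2 scale. The tricellular junction protein Ildr2 had 8.68, 13, 7.98 and 8.48 RPKM in the kidney and 0.416, 0.256, 0.791 and 0.290 in the intestine, and its relative Lsr 9.70, 8.02, 11.4 and 4.22 in the intestine and 1.67, 0.943, 2.80 and 1.59 in the kidney, with 45% of its exon bases shared with other genes. The scaffold Tjp3 was higher in the intestine by 3.90 on the log2 scale (SE 0.61, adjusted p = 0.00125), while Tjp1 missed the fold threshold (log2 fold change -0.99, SE 0.26, adjusted p = 0.014).

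Transcription factors included shared leaders as well as factors measured on one side. Hnf4a led its family in both tissues by mean RPKM, although Hnf4g was above it in intestine WT 2. Hnf4a was not called, with 86.4, 108, 104 and 91.8 RPKM in the kidney and 145, 103, 151 and 101.8 in the intestine (log2 fold change -0.36, SE 0.27, adjusted p = 0.294). Its paralog Hnf4g had 101, 116, 139 and 68.1 RPKM in the intestine and 2.23, 3.93, 1.48 and 2.54 in the kidney (log2 fold change -5.41, SE 0.40, adjusted p = 2.86e-05), so that Hnf4a held 97.5% ± 0.871 of the summed RPKM of both in the kidney and 54.5% ± 6.03 in the intestine (means ± SD, n = 4).

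Several factors of the intestine were at or near 0 in the kidney. Both Cdx genes tested, all 3 Foxa genes and both Onecut genes tested were higher in the intestine, and of the 15 Klf genes tested 4 were higher in the kidney and 6 in the intestine. These Klf counts are 26.7% and 40.0%, against 23.5% and 23.1% of all genes tested, so that for the kidney is near the share of all genes. Cdx2, which specifies intestinal identity, had 57.9, 32.5, 72.9 and 33.1 RPKM in the intestine and no counts in the kidney, at least 4219.5-fold higher (adjusted p = 8.12e-05). Isx, an intestinal homeobox gene that limits vitamin A uptake, had 78.1, 68.5, 61.6 and 56.7 RPKM and no kidney counts, at least 4419-fold higher (adjusted p = 1.65e-05). Gata5 had 24.3, 22.8, 29.0 and 23 RPKM in the intestine and 2 counts in all in the kidney. Gata4, which is known to mark the jejunum against the ileum, had 0.198, 28.4, 0.474 and 22.2 RPKM in the intestine, high in the libraries numbered 2, and 2 counts in all in the kidney, whereas Gata3, known from the nephric duct and collecting duct, had 2.48, 1.34, 2.42 and 2.44 RPKM in the kidney and 0.326, 0.340, 0.00911 and 0.579 in the intestine. The Kruppel-like factors Klf4 and Klf5 were higher in the intestine by 5.31 (SE 0.24) and 8.01 (SE 0.49) on the log2 scale, and Klf15 and Klf9 higher in the kidney by 3.86 (SE 0.46) and 1.53 (SE 0.31).

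Several factors of nephron development were higher in the kidney. Among the genes tested, these included 4 of 5 Irx genes, all 4 Lhx and Emx genes, 4 of 5 genes of the Sall and sine oculis homeobox families and both Sim genes, and of the 6 Pax genes tested 3 were higher in the kidney and 3 in the intestine. Pax2 had 9.51, 0.173, 6.56 and 4.67 RPKM in the kidney, with WT 2 far below the others, and no counts in the intestine, at least 1092-fold higher (adjusted p = 0.00512). Without a filter on low counts its adjusted p was 0.124. Pax8 was present in both, with 7.64, 4.73, 8.19 and 6.61 RPKM in the kidney and 1.84, 1.42, 2.72 and 1.44 in the intestine (log2 fold change 1.88, SE 0.29, adjusted p = 0.00127). Emx1 had 12.4, 4.12, 11.4 and 10.1 RPKM in the kidney and no counts in the intestine. Foxi1, the factor of intercalated cells, likewise had 6.08, 7.31, 8.70 and 6.31 RPKM in the kidney and no counts in the intestine, at least 589-fold higher (adjusted p = 9.54e-05). Pou3f3 had 9.12, 5.66, 9.44 and 9.22 RPKM in the kidney and 1 count in the intestine, while Pou2f3, the factor of tuft cells, had 0.410, 0.274, 4.45 and 1.48 RPKM in the intestine and at most 0.190 in the kidney. Of the estrogen-related receptors, Esrrg was higher in the kidney by 5.17 (SE 0.26) and Esrra higher in the intestine by 1.88 (SE 0.46) on the log2 scale, and of the Elf factors Elf5 was higher in the kidney (0.485, 1.5, 0.643 and 0.444 RPKM against 0.0105, 0.108, 0.0123 and 0.0222) and Elf3 in the intestine (79.9, 97.3, 66.4 and 100.1 RPKM against 4.40, 3.53, 5.71 and 3.58).

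Small intestine libraries 1 and 2 were compared next, because they differed in many of these genes. In a fit of the same 8 libraries with a term for each tissue and number, 810 genes were higher in the intestine libraries numbered 2, which is 4.07% of the 19882 tested, and 551 higher in those numbered 1, which is 2.77%, so that 6.85% were called in either direction. These counts fell to 299 and 146 without intestine WT 2, to 296 and 153 without intestine KO 2 and to 441 and 357 without intestine KO 1. Between kidney libraries 2 and 1 no gene was called by edgeR, with 1440 at an unadjusted p under 0.05, and DESeq2 called 5 higher in number 2 and 11 higher in number 1. Of the 555 listed genes, 107 were called in the intestine, 58 of them higher in number 2 and 49 higher in number 1. By class these were 58 of 261 transporters, 20 of 91 brush border genes, 8 of 78 junction genes and 21 of 125 transcription factors. The 107 depended on single libraries, with 59 called without intestine WT 2, 37 of them higher in number 2, and 60 without intestine KO 2, 44 of them higher in number 2. The kidney minus intestine difference itself depended on the number in 486 genes, or 2.44% of those tested, and 54 of these were listed genes.

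Genes higher in the intestine libraries numbered 2 included factors and enzymes known from the proximal gut. Across all genes, the 5 with the largest change included Akp3, an intestinal alkaline phosphatase, with 0.0294, 1328, 0 and 683 RPKM, the otopetrin gene Otop3, with 0, 76.9, 0 and 67 RPKM, and enteropeptidase, Tmprss15, with 0.0148, 211, 0 and 127. Lct had 0.00482, 114, 0.0226 and 311 RPKM (log2 change from 1 to 2 13.83, adjusted p = 0.000431), and Pdx1, a factor of the duodenum, had 0, 46.1, 0 and 31.8 (adjusted p = 0.00281). The iron exporter Slc40a1 and iron importer Slc11a2 had 16, 277, 6.52 and 169 and 7.73, 177, 8.26 and 123 RPKM, and were higher in number 2 by 4.37 and 4.24 on the log2 scale. The fructose carrier Slc2a5 had 5.99, 79.8, 20.6 and 290.5 RPKM and was higher in number 2 by 3.79 (adjusted p = 0.00824). In number 1, the leading genes included Fabp6, with 15112, 0.530, 13067 and 0.907 RPKM, and Osr2, a factor related to odd-skipped, with 20.1, 0, 37.2 and 0.

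For 22 of the 555 listed genes, every kidney library lay between both intestine pairs, with number 2 the higher in 13 and number 1 in 9. This is 3.96% of the listed genes, against 263 of all 19882 genes, or 1.32%, and 14 of the 22 were transporters. As the lists were chosen with earlier results known, the gap between these shares is not read as a result. These are genes for which one pair of intestine libraries was above the kidney and the other below.

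**Figure D5:**
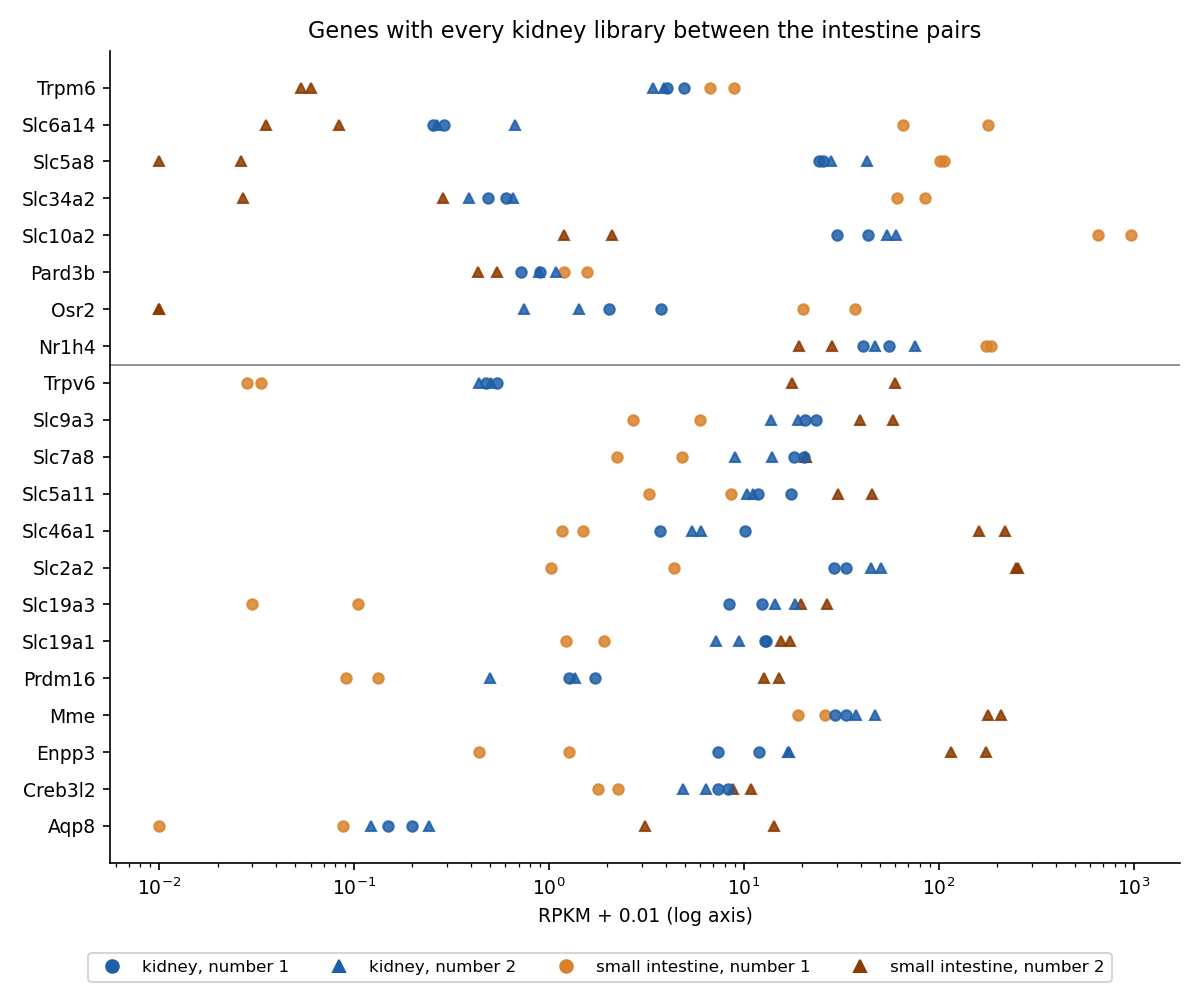
RPKM + 0.01 (horizontal log axis) of 21 of the 22 listed genes whose kidney libraries (blue) all lie between the intestine libraries numbered 1 (orange circles) and those numbered 2 (brown triangles). The intestine number 2 is higher in the 13 genes of the lower block and number 1 in the 8 genes of the upper block.

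Carrier genes for glucose, folate, calcium and protons were among those higher in number 2. Slc2a2 had 1.01, 250.03, 4.38 and 256 RPKM in the intestine and 28.9, 50.9, 33.5 and 45.1 in the kidney (change from 1 to 2 in the intestine 6.71, adjusted p = 0.00271). The proton-coupled folate carrier Slc46a1 had 1.48, 161, 1.17 and 218 RPKM in the intestine and 3.71, 5.40, 10.2 and 6.04 in the kidney (change 7.10, adjusted p = 0.000938). The calcium channel Trpv6, the intestinal paralog of Trpv5, had 0.0235, 59.8, 0.0184 and 17.7 RPKM in the intestine and 0.465, 0.498, 0.531 and 0.429 in the kidney (change 10.66, adjusted p = 0.00091). Trpv5 itself, the channel of the distal tubule, had 9.62, 16.9, 9.97 and 13.1 RPKM in the kidney and at most 0.404 in the intestine. The sodium-proton exchanger Slc9a3 had 5.99, 39.4, 2.69 and 58.5 RPKM in the intestine and 23.5, 13.8, 20.6 and 19 in the kidney, and the water channel Aqp8 0.0781, 3.10, 0 and 14.3 and 0.190, 0.113, 0.139 and 0.232. The call of Aqp8 between the numbers (adjusted p = 0.0205) was lost without intestine KO 2 (adjusted p = 0.13). Each of these except Trpv5 had a kidney level between both pairs of intestine libraries.

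The bile acid carrier Slc10a2, the carrier Slc5a8 and the channel Trpm6 were among the genes higher in number 1, whereas of the 13 Slc16 monocarboxylate carriers 4 were higher in number 2 and none in number 1. Slc10a2 had 656, 1.18, 972 and 2.09 RPKM in the intestine and 30.1, 60.7, 43.4 and 54.3 in the kidney (change from 1 to 2 -8.97, adjusted p = 0.000438). Slc5a8, a sodium-coupled carrier of short-chain monocarboxylates, had 101.5, 0, 106 and 0.0163 RPKM in the intestine and 25.4, 42.7, 24.5 and 28.0 in the kidney (change -13.51, adjusted p = 0.000341). The magnesium channel Trpm6 had 8.96, 0.0438, 6.71 and 0.0507 RPKM in the intestine and 4.03, 3.91, 4.94 and 3.40 in the kidney (change -7.35, adjusted p = 0.000431). Among the factors, the bile acid receptor Nr1h4 had 175, 28.3, 186 and 19.2 RPKM in the intestine and 41.2, 75.5, 55.6 and 47.4 in the kidney. In all of them the intestine libraries numbered 2 were below the kidney and those numbered 1 above it.

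The tissue comparison was therefore repeated against each pair of intestine libraries. Of 549 listed genes tested in both, 322 were called in the same direction, 48 only against number 1, 53 only against number 2 and 13 in opposite directions. The 13 included Slc6a14, Slc10a2, Osr2, Slc5a8 and Nr1h4, which were higher in intestine number 1 than in the kidney and lower in number 2, and Slc5a11, Slc46a1, Slc9a3, Prdm16, Enpp3, Slc2a2 and Trpv6, which were lower in number 1 and higher in number 2. For Slc10a2 the log2 fold change of kidney minus intestine was -4.14 against number 1 and 4.89 against number 2, and for Slc2a2 it was 4.04 and -2.68. Slc6a14, Slc46a1 and Trpv6 were called higher in the intestine over all 8 libraries and the other 10 were not called. The calls of Slc46a1 and Trpv6 were each lost without any of 6 single libraries (adjusted p up to 0.415 and 0.486), and that of Slc6a14 without intestine WT 1 or KO 1 (adjusted p up to 0.269). The ratios of Trpv5 to Trpv6 and of Slc6a13 to Slc6a14 were higher in all kidney libraries than in all intestine libraries. Their order could thus not change against either pair of intestine libraries, but the size of the difference did. In log2 ratio it was 6.93 against number 1 and 12.76 against number 2 for Trpv5 and Trpv6, and 19.50 and 7.28 for Slc6a13 and Slc6a14. In intestine number 2 both Slc6a13 and Slc6a14 were low, so their ratio there depends on the 0.5 added to each count. For Slc36a2 and Slc36a1, the pair that overlapped, the difference was -1.35 against number 1 and 5.72 against number 2.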

How the data were processed

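RNA-seq counts of 4 kidney and 4 small intestine libraries were assigned from their labels to tissue, genotype and replicate number. The authors trimmed reads with cutadapt, mapped them with HISAT2 2.1.0, counted them with featureCounts 2.0.1 on GRCm38 exons and deposited raw counts for 55401 genes, with other columns for the merged exon length. The methods name GRCh38 as the genome. They state strand-specific counting of proper pairs, but the command in the file header has neither option, so reads of antisense and overlapping genes may be mixed or lost, and both mates of a pair counted. Among low counts, 55.9% to 58.8% were even numbers in the 8 libraries, and whether both mates were counted was not tested.

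Libraries were TMM-scaled and tested with edgeR 4.0.16 (filterByExpr, robust quasi-likelihood test, genotype as an additive term) in R 4.3.3 with limma 3.58.1. The thresholds of the study were kept, a Benjamini-Hochberg adjusted p below 0.1 with more than a 2-fold change. The standard error of a fold change is its log2 value, without sign, over the root of the F value. The authors named DESeq2 in their methods, and DESeq2 1.42.0 was an alternative. Ratios of paralogs used counts + 0.5 and an exact permutation test (Python 3.11.15, scipy 1.17.1). The tests were checked on simulated counts with known changes. A tissue with no counts was set at a floor of 3 counts over its 4 libraries, and floors and intervals cover counting error only. They take counts as independent, and are too tight if both mates of a pair were counted.

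Lists, pairs and comparisons were chosen with earlier results of these data known. Genes named by rule were both members of each pair, up to 5 genes per class and direction with the largest change among called genes without overlap and with at least 5 RPKM, the leading member of each family, marker genes, listed genes called between intestine numbers 1 and 2 and the 5 leading genes of all tested in each direction there. Atp1b1, Cdhr5, Cftr, Klf5, Rdx, Slc12a3 and Slc22a12 were chosen after their values were seen. Alternatives were other size factors, filters, thresholds, covariates and samples. Across genes, the difference between numbers 2 and 1 in the kidney had a correlation of 0.035 in WT and -0.027 in KO with that in the intestine. This cannot show whether same-numbered libraries came from the same animals. Exons shared between genes were taken from the annotation. Some genes, paralog pairs that hold them and 1 of 4 motifs searched are not reported here.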

Additional observations from a re-analysis of the deposited data

Results flagged for a closer look

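Among the 132 genes whose values are given or named, 200 groups of 4 libraries with at least 1 RPKM were tested for a library far from the other 3 by Dixon's ratio at its 95% critical value, which chance exceeds in about 1 of 20 groups. 10 groups exceeded it, which is the number that chance gives, and in 5 of them the library was kidney WT 2. Kidney WT 2 stood apart for Cldn8 (81.3 RPKM against 50.9 to 54.4), Cltrn (2572 RPKM against 1469 to 1639), Gata3 (1.34 RPKM against 2.42 to 2.48), Ildr2 (13 RPKM against 7.98 to 8.68) and Pou3f3 (5.66 RPKM against 9.12 to 9.44). Its deviation from the other kidney libraries also followed transcript GC content, as described above, and the part of this in these genes was not tested. Kidney KO 1 stood apart for Alpl (63.7 RPKM against 37.1 to 40.9) and Slc27a4 (8.68 RPKM against 4.99 to 5.12), and kidney WT 1 for Cubn (13.4 RPKM against 36.2 to 40.2). In the small intestine, WT 2 stood apart for Slc17a4 (6.11 RPKM against 19.6 to 21.8) and Slc26a3 (72.8 RPKM against 32.7 to 37.1).

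The difference between kidney and small intestine itself depended on the replicate number, by a test of the interaction in edgeR, for 26 of these genes, against 2.44% of all genes tested. Some of these genes were named because they differed between intestine numbers 1 and 2, so their number is not read against that share. The values are the kidney minus intestine log2 fold change of the libraries numbered 2, less that of the libraries numbered 1. It was positive, with the intestine lower in number 2, for Slc5a8 (14, adjusted p = 0.00115), Slc6a14 (11.85, adjusted p = 0.00115), Slc10a2 (9.67, adjusted p = 0.0019), Trpm6 (7.05, adjusted p = 0.00211), Osr2 (12.91, adjusted p = 0.0102), Mep1a (5.46, adjusted p = 0.0139), Cldn8 (4.02, adjusted p = 0.0166), Slc34a2 (8.98, adjusted p = 0.0203), Nr1h4 (3.26, adjusted p = 0.0269), Fabp6 (12.88, adjusted p = 0.0526), Enpep (2.69, adjusted p = 0.095) and Slc3a1 (2.13, adjusted p = 0.0958). It was negative, with the intestine higher in number 2, for Trpv6 (-10.80, adjusted p = 0.00326), Slc46a1 (-7.29, adjusted p = 0.00555), Prdm16 (-7.79, adjusted p = 0.00676), Slc11a2 (-5.07, adjusted p = 0.00692), Enpp3 (-6.61, adjusted p = 0.014), Slc2a2 (-6.06, adjusted p = 0.0212), Slc40a1 (-4.31, adjusted p = 0.0212), Slc27a2 (-4.50, adjusted p = 0.0264), Slc5a11 (-3.16, adjusted p = 0.0285), Slc9a3 (-3.93, adjusted p = 0.0296), Slc23a2 (-3.60, adjusted p = 0.0345), Slc2a5 (-3.61, adjusted p = 0.0581), Lct (-12.76, adjusted p = 0.0702) and Aqp8 (-7.40, adjusted p = 0.0945). Osr2 had no counts in the intestine libraries numbered 2, so its fitted value depends on the prior count and is not a bound. Markers of proximal and distal intestine differ between the same libraries, with the summed levels given above, and their part in these differences was not tested.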

How the results depend on the processing

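The counts of genes higher in the kidney and in the small intestine stayed within 1.5 times of 4671 and 4595 except under 3 settings. They were 2673 and 2688 with at least 10 counts in every library, 2407 and 2397 with the WT libraries alone and 2902 and 3104 with a fold over 4. With total counts as library size the kidney's share of the calls rose, at 5298 and 3828. Leaving out 1 library gave 4043 to 4682 and 4335 to 4961. With at least 10 counts in every library 98 transporters were called, 96 of them among the 176, 36 junction genes, 34 of them among the 58, and 41 transcription factors, all among the 91. The counts between intestine numbers depended more on the setting, with 521 higher in number 2 and 313 higher in number 1 at an adjusted p under 0.05, and 1048 higher in number 1 by DESeq2. Leaving out 1 intestine library, which leaves 1 number with a lone library assumed to vary like the others, gave 296 to 584 and 146 to 405. Log2 fold changes of kidney minus intestine reversed against the intestine libraries numbered 1 alone for Aqp8 (2.15), Enpp3 (4.02), Prdm16 (3.53), Slc11a2 (0.45), Slc2a2 (4.04), Slc40a1 (0.0441), Slc46a1 (2.12), Slc5a11 (1.17), Slc9a3 (2.18) and Trpv6 (4.40), and against those numbered 2 alone for Nr1h4 (1.23), Osr2 (10.58), Slc10a2 (4.89), Slc34a2 (2.16), Slc5a8 (11.70) and Slc6a14 (2.88). The value of Osr2 is a fit against libraries with no counts, which depends on the prior count. The difference for Slc36a2 and Slc36a1 also reversed against number 1, to -1.35. The count of 23 separate pairs was 23 with a pseudocount of 2. It was also 23 without any 1 library, which could not lower it, because a pair separate over all libraries stays separate over fewer. The replicate block, with the number as a term beside genotype, gave 4795 and 4496 genes. In 23 of 24 pairs the difference was positive in all 4 same-numbered pairs of libraries, which follows from their separation and is no further check. The block ended the calls of Aqp8, Slc11a2, Slc12a2, Slc34a2, Slc40a1, Slc46a1, Slc6a14 and Trpv6 and changed no other call among the genes described, and the numbers are not known to pair animals. Over the 132 genes described and all alternatives, 2787 tissue results kept their call, 107 lost it, 48 gained it and 16 reversed, and the cause was not tested. At these depths a gene with few or no counts in 1 tissue has only a bound or a wide interval for its fold.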
